A study of Mus musculus with 8 samples.

Results

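Microglia labelled with a Parp14 activation plasmid were compared with microglia labelled with a control plasmid, both exposed to OGD (oxygen and glucose deprivation), which models ischaemia in a dish. The comparison uses 4 of the series' 8 RNA-seq libraries, 2 labelled OGD_PARP14 and 2 labelled OGD_Con. Gene models were kept where the deposited table names the gene and at least 2 of these 4 libraries hold at least 1 FPKM (fragments per kilobase of model, scaled to library size), which left 10743 of 54419 models. Just inside and outside that limit stood Porcn and Dand5, whose second highest OGD values were 1.0001 and 0.99996 FPKM. All cells are primary microglia from C57BL/6 mouse brain at postnatal day 2. Per the labels, OGD_PARP14 cells were transfected with a PARP14 CRISPR activation plasmid and OGD_Con cells with the plasmid ACT-Con, each for 24 h, followed by 6 h of OGD. PARP14 and Con, the other 4 libraries, carry the same plasmids without OGD in their titles, although the treatment text mentions OGD for every sample. The labels speak of 2 independent experiments but tie no library to a culture, litter or pool of pups, so p-values measure only the spread between these libraries.

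PARP14 is a mono-ADP-ribosyltransferase that is itself induced by interferon and that modifies signalling through STAT6 and interferon pathways in macrophages. A CRISPR activation plasmid brings a transcriptional activator to a gene's promoter and is transient, so only transfected cells carry it. Oxygen loss stabilises the transcription factor HIF-1, which switches on glycolysis, glucose uptake and angiogenic genes, and glucose loss adds the amino acid and protein folding stress responses. Microglia, the resident macrophages of the brain, can also take on a phagocytic, lipid-laden state marked by Spp1, Gpnmb, Trem2 and cathepsins.

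The libraries hold an estimated 14.7 and 13.5 M fragments in OGD_PARP14 and 15.1 and 15.0 M in OGD_Con. Microglia and macrophage markers summed to 5284 and 4405 FPKM in OGD_PARP14 and 5189 and 5169 in OGD_Con, with all 14 at 1 FPKM or more in each of the 4, although P2ry12 and Tmem119 stood low, at 1.88 to 5.49 FPKM. Neuron, endothelial and astrocyte markers summed to at most 7.61 FPKM in any of the 4, fibroblast and mural markers to at most 2.30 and peripheral leukocyte markers to at most 2.43, while oligodendrocyte-lineage markers summed to 24.0 and 31.3 FPKM in OGD_PARP14 and 22.4 and 21.8 in OGD_Con. The part of these markers in the results was not tested. OGD_PARP14 replicate 2 stood apart. It lay at least 1 log2 unit from OGD_Con replicate 1 in 1515 models and from OGD_Con replicate 2 in 1569, while OGD_PARP14 replicate 1 did so in 119 and 141 and the OGD_Con libraries differed from each other so in 147 (1.37%). From each of the libraries without OGD it lay that far in 1177 to 1283 models. Each result is therefore given for each OGD_PARP14 library on its own. In bulk RNA, fewer cells of a type and less RNA per cell cannot be told apart.

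The targeted gene was examined first. Its model lies on the minus strand of chromosome 16 from 35832874 to 35871544, in the coordinates of the deposited table, carries the name Gm49730 and holds Parp14 transcripts. It stood at 55.8 and 54.6 FPKM in the libraries labelled OGD_PARP14, against 12.5 and 53.7 FPKM in those labelled OGD_Con. Only OGD_Con replicate 1 was low, and OGD_Con replicate 2 stood beside both OGD_PARP14 libraries. The log2 fold change was 1.05 (SE 0.60, limma adjusted p = 0.566, higher in both libraries), and without OGD_Con replicate 1 it was 0.04. Without OGD the libraries labelled PARP14 held 12.2 and 11.5 FPKM and those labelled Con 61.4 and 50.7, the opposite direction. Across the 8 libraries the model thus took a level of 11.5 to 12.5 FPKM in 3 and of 50.7 to 61.4 in 5, and every plasmid direction below rests on the labels.

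No gene model passed in OGD_PARP14 against OGD_Con. limma called 0 of 10743 models higher (0%) and 0 lower (0%) at an adjusted p under 0.05, while 371 (3.45%) had an unadjusted p under 0.05. Gm6254 with Gm17082, a processed pseudogene model on chromosome 14, had the smallest adjusted p, 0.0791. It held 14.1 and 9.36 FPKM in OGD_PARP14 and 0.565 and 0.737 in OGD_Con. It thus passed the 1 FPKM filter only through the group where it was high. Models whose groups did not overlap numbered 1422 higher (13.2%) and 2092 lower (19.5%). Median absolute differences from the OGD_Con mean were 0.0803 log2 units in OGD_PARP14 replicate 1 and 0.362 in OGD_PARP14 replicate 2, and each OGD_Con library lay a median of 0.0538 from that mean.

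A library was taken to depart where it lay at least 1 log2 unit from the OGD_Con mean and beyond both OGD_Con libraries. OGD_PARP14 replicate 1 departed upward in 46 models (0.428%) and downward in 40 (0.372%). OGD_PARP14 replicate 2 departed upward in 496 (4.62%) and downward in 973 (9.06%). Both departed upward in 13 models (0.121%), both downward in 13 (0.121%) and in opposite directions in 5 (0.0465%). In 459 models (4.27%) only replicate 2 stood higher and in 914 (8.51%) only replicate 2 stood lower, with replicate 1 less than 0.5 log2 units from the OGD_Con mean, whereas only replicate 1 stood higher in 14 (0.13%) and lower in 13 (0.121%). A further 93 (0.866%) lay between these classes. The 26 models with both libraries apart the same way became 50 without OGD_Con replicate 1 and 45 without OGD_Con replicate 2. OGD_PARP14 replicate 1 lay above the OGD_Con mean in 49.8% of models and replicate 2 in 41.5%. Abl1 and Gm17494 with Mir760 stood nearest the 1-unit limit in replicate 1, at 0.988 and 1.02, and Gm5086 and Atp6v0a1 in replicate 2, at 0.999 and 1.00. Quantile normalization moved the split of models with only replicate 2 apart to 609 higher and 664 lower, and median centring to 552 and 747. The median difference over all models in replicate 2 was -0.11.

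**Figure D1:**
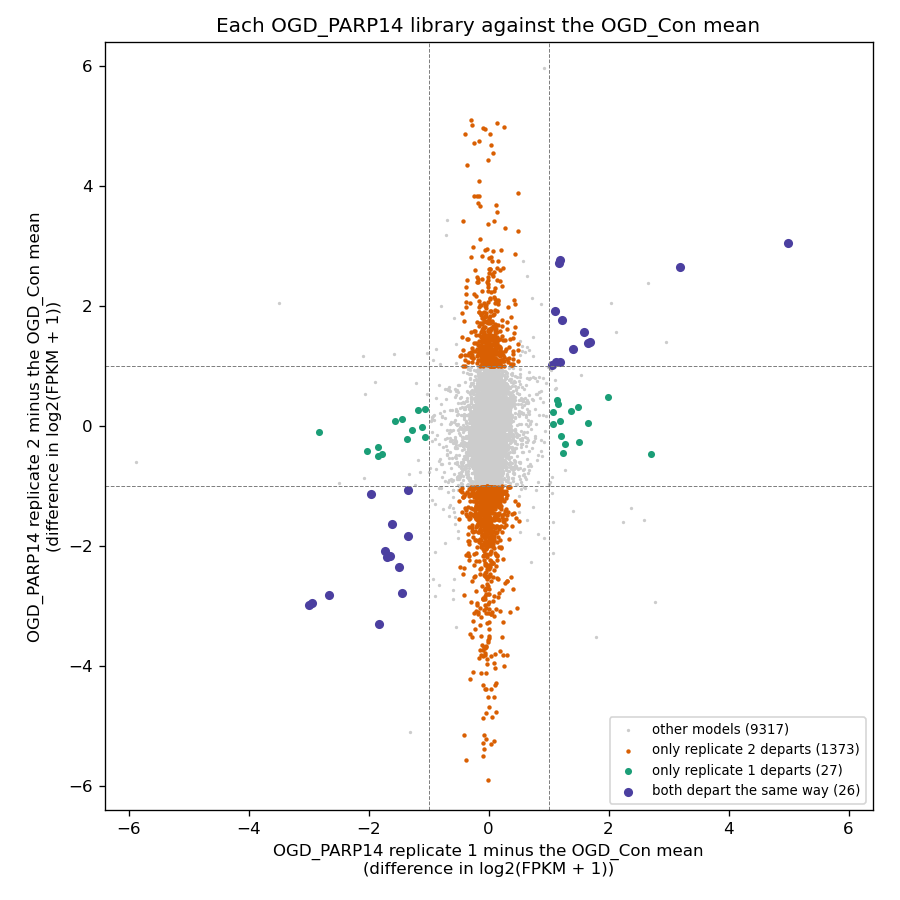
Difference of OGD_PARP14 replicate 1 (horizontal axis) and OGD_PARP14 replicate 2 (vertical axis) from the OGD_Con mean, in log2(FPKM + 1), 1 point for each of 10743 gene models, with dashed lines at 1 log2 unit. Points spread along the vertical axis (1373 models with only replicate 2 apart) and few leave it (27 with only replicate 1 apart, 26 with both apart the same way).

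Among the 13 models higher in both OGD_PARP14 libraries were genes with roles in sugar metabolism, haem transport and Wnt signalling. H6pd, the hexose-6-phosphate dehydrogenase of the endoplasmic reticulum, on the minus strand of chromosome 4 from 149979475 to 150009023, held 16.4 and 16.2 FPKM in OGD_PARP14 and 4.56 and 5.02 in OGD_Con. Flvcr1, a membrane transporter of haem and choline on the minus strand of chromosome 1 from 191005847 to 191026158, held 10.1 and 15.3 FPKM against 3.54 and 3.95 in OGD_Con. Nhlrc3 held 19.5 and 15.8 FPKM against 5.10 and 5.62 in OGD_Con. In all 3 the OGD groups did not overlap, which the choice of these models required. Their log2 fold changes were 1.58 (SE 0.40) for H6pd, 1.503 (SE 0.19) for Flvcr1 and 1.55 (SE 0.55) for Nhlrc3. The limma adjusted p values were 0.566, 0.45 and 0.566. Without OGD, H6pd held 13.1 and 14.4 FPKM in PARP14 and 12.5 and 4.39 in Con, and Nhlrc3 2.42 and 11.3 in PARP14 and 11.6 and 10.9 in Con, so each also took a high and a low level there. Pygo2, a co-activator of Wnt target genes, held 5.90 and 11.1 FPKM against 2.17 and 2.22 in OGD_Con. It also took both levels without OGD, at 11.3 and 1.70 FPKM in PARP14 and 1.91 and 11.6 in Con.

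The 13 models lower in both libraries included regulators of mTORC1 and of the actin cytoskeleton. Rragd, the RagD GTPase that signals amino acids to mTORC1, on the plus strand of chromosome 4 from 32983037 to 33022180, held 6.04 and 1.53 FPKM in OGD_PARP14 and 21.2 and 27.0 in OGD_Con. Its values without OGD were 0.672 to 2.68 FPKM, so OGD_PARP14 replicate 2 lay within them. Lpar5, a receptor for lysophosphatidic acid in a model joined with 2010008C14Rik on the plus strand of chromosome 6 from 125067920 to 125086047, held 3.66 and 1.58 FPKM in OGD_PARP14 and 12.2 and 12.1 in OGD_Con. Without OGD it split within each plasmid, at 2.65 and 7.36 FPKM in PARP14 and 8.87 and 2.24 in Con. The log2 fold changes were -2.56 (SE 0.56) for Rragd and -1.92 (SE 0.64) for Lpar5, each with a limma adjusted p of 0.566. Rac1, a small GTPase that drives actin assembly, held 37.7 and 26.6 FPKM against 97.3 and 96.2 in OGD_Con, and Fam107b held 5.84 and 5.15 against 44.5 and 39.7. Both of these also took a high and a low level among the libraries without OGD, at 28.5 to 97.0 FPKM for Rac1 and 10.5 to 38.3 for Fam107b.

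Spread among the libraries without OGD was counted in these models only. Of the 13 higher models 10 spanned at least 1 log2 unit among the 4 libraries without OGD, and of the 13 lower models 8 did. The share over all models was not counted, so these counts are descriptions. In each direction 3 models rest on no reference transcript and 3 on processed pseudogenes alone, whose values can share fragments with the parent gene, and 7 higher and 4 lower models hold a protein-coding transcript. Fam3b and Lyz2 name 2 of the higher models without a reference transcript. Wdpcp, at 0 in both OGD_PARP14 libraries and at 7.39 and 6.01 FPKM in OGD_Con, names such a lower model, 251 bp long. That model passed the filter only through OGD_Con. The pseudogene model that carries the names Entpd1 and Gm8783, which is not the model of the Entpd1 gene itself, held 0.777 and 0.273 FPKM in OGD_PARP14 and 13.7 and 1.25 in OGD_Con, and only OGD_Con replicate 1 was high. In comparison, PARP14 against Con, by the same limits over 10587 models, gave 11 models with both libraries higher and 10 with both lower.

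**Figure D2:**
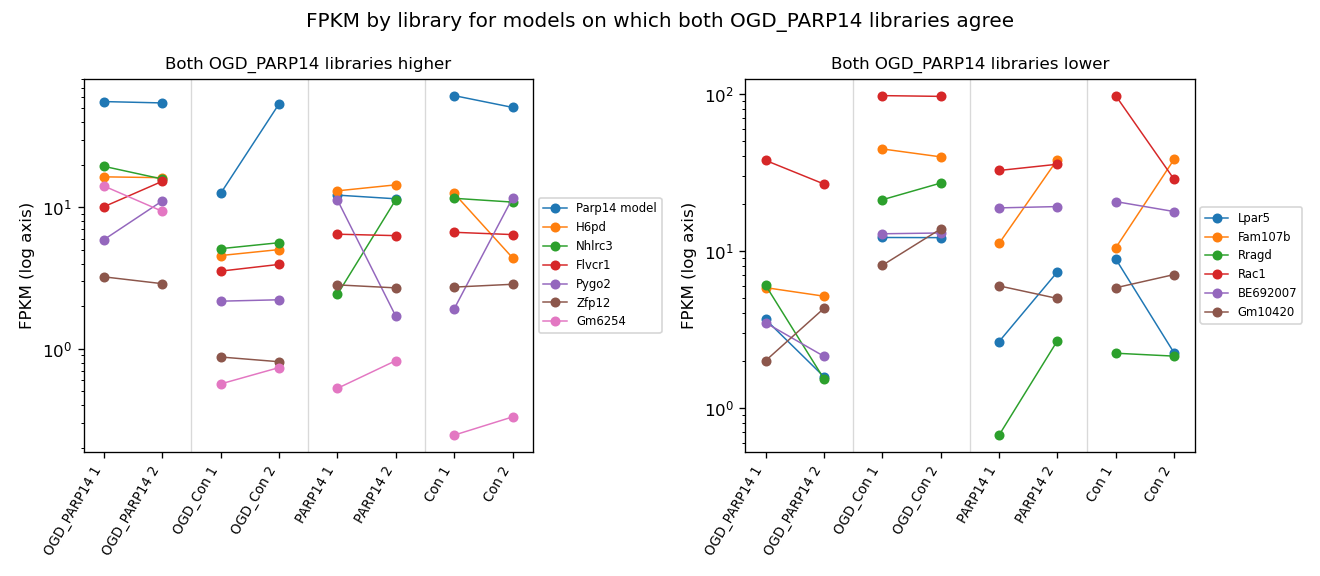
FPKM (log axis) in each library, OGD_PARP14 leftmost, for 7 models higher (left panel) and 6 models lower (right panel) in both OGD_PARP14 libraries; each point is 1 library and lines join the 2 libraries of a group. The Parp14 model, Pygo2, Rac1 and Fam107b take 2 levels also among the libraries without OGD, while BE692007 lies at 17.8 to 20.6 FPKM there and at 3.49 and 2.13 in OGD_PARP14.

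Several genes with the smallest p values lay at like levels in both OGD_PARP14 libraries. Pgam5, a mitochondrial protein phosphatase, held 12.9 and 12.8 FPKM against 6.61 and 6.99 in OGD_Con (log2 fold change 0.83, SE 0.10, limma adjusted p = 0.439). Its level in PARP14 was likewise 13.4 and 12.4 FPKM against 7.42 and 7.72 in Con. Csf2rb, the shared beta chain of the GM-CSF, IL-3 and IL-5 receptors, held 12.2 and 12.5 FPKM against 6.25 and 7.21 in OGD_Con (0.79, SE 0.13, limma adjusted p = 0.566). On the lower side Atg14, an autophagy subunit of the class III PI 3-kinase, held 4.17 and 5.79 FPKM against 9.99 and 10.98 in OGD_Con (-0.95, SE 0.18, limma adjusted p = 0.566). Cox4i1, a subunit of cytochrome c oxidase, held 147 and 110.2 FPKM against 264 and 211 in OGD_Con. Without OGD it stood the other way, at 287 and 274 FPKM in PARP14 and 141 and 144 in Con. Rab18, Lsm12 and the pseudogene Rps2-ps13, named by the same rule, had log2 fold changes of 0.88, -1.09 and -0.75.

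When OGD_PARP14 replicate 2 was left out, 9 models were called, and in 4 of them replicate 2 departed the same way. In that fit OGD_PARP14 replicate 1 is a lone library assumed to vary like the other groups, and 5 models were called higher (0.0465%) and 4 lower (0.0372%). Zfp12, a zinc finger gene, held 3.22 and 2.88 FPKM in OGD_PARP14 and 0.875 and 0.810 in OGD_Con, while the libraries without OGD held 2.69 to 2.86. OGD_Con was thus the low group for Zfp12, which passed the 1 FPKM filter only through OGD_PARP14. Flvcr1, Gm6254 with Gm17082 and BE692007 were called as well, and in these too both OGD_PARP14 libraries stood on the same side. In the remaining 5 replicate 2 did not depart. Abl2, a tyrosine kinase gene, held 8.45 FPKM in OGD_PARP14 replicate 1 and 1.78 in replicate 2, against 2.29 and 2.35 in OGD_Con, and Golph3l held 5.34 and 17.9 against 16.7 and 15.9. Among models with only replicate 1 apart, Rps25, a ribosomal protein gene, held 164 and 72.7 FPKM in OGD_PARP14 and 55.8 and 60.0 in OGD_Con, and Ttyh3, a chloride channel gene, 8.94 and 21.9 against 24.4 and 21.5.

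Replicate 2 lay far below OGD_Con in genes of the hypoxia response, and replicate 1 did not. Of 31 hypoxia and HIF-1 targets listed, 29 were tested, and OGD_PARP14 replicate 2 departed downward in 20 and upward in 1, Plin2. Its median difference over these 29 was -1.67 log2 units, against -0.11 over all models. OGD_PARP14 replicate 1 departed in 0 of the 29, with a median of -0.07. Over all models replicate 2 departed downward in 9.06% and upward in 4.62%. The fit without OGD_PARP14 replicate 1 compares the lone replicate 2 with a spread taken from the other groups. Its calls therefore add no support to these departures. Promoters of the 4 members with the lowest replicate 2 differences from the OGD_Con mean, among those in the RefSeq table, are shown because these members set the 2 OGD_PARP14 libraries furthest apart within the list. Each runs 5' to 3' on the gene's strand, from 250 bases before to 50 after the start, in build GRCm38.p6. Capitals mark ACGTG or GCGTG, the core that HIF-1 recognises, or their reverse complements CACGT and CACGC, which overlap the E-box CACGTG. Ddit4 is shown from chr10:59951721-59952020 (minus strand), Adm from chr7:110627407-110627706 (plus), Egln3 from chr12:54203825-54204124 (minus) and Pfkfb3 from chr2:11553880-11554179 (minus).
Ddit4: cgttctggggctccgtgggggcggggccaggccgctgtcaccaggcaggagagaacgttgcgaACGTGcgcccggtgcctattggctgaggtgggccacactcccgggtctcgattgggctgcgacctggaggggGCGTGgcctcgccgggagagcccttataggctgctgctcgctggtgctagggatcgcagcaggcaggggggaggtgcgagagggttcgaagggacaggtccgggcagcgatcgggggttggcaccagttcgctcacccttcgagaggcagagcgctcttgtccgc
Adm: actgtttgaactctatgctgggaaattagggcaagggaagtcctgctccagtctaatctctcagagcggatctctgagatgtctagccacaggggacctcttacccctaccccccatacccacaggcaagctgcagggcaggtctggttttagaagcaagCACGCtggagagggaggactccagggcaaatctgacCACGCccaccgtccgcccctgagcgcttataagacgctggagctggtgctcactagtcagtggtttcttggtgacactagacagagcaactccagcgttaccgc
Egln3: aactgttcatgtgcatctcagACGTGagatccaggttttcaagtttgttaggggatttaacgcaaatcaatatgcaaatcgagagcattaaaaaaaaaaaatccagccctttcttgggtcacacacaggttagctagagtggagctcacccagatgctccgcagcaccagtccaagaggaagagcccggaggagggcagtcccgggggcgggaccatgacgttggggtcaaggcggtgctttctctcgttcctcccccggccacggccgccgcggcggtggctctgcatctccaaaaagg
Pfkfb3: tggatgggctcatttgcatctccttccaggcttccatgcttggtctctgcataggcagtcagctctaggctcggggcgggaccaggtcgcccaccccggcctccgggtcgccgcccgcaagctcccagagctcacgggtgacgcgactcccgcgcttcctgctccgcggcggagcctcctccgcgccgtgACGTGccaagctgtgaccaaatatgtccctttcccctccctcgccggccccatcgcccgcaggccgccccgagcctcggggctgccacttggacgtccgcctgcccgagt

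Ddit4 and Adm hold 2 such cores each and Egln3 and Pfkfb3 1 each. A core stood in 22 of the 24 tested hypoxia members with an entry, in 15 of the 16 of them that departed downward in replicate 2, and in 43.8% of 32851 promoters of this length. These matches describe letters only.

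Some of these genes lay near the level of the libraries without OGD in replicate 2, and others lay far below it. Egln3, a prolyl hydroxylase that marks HIF for degradation, held 33.8 and 1.08 FPKM in OGD_PARP14 and 32.5 and 37.7 in OGD_Con, and 0.708 to 0.801 without OGD. Vegfa, the angiogenic growth factor, held 11.1 and 0.285 FPKM against 11.2 and 16.6 in OGD_Con, and at most 0.295 without OGD. Replicate 2 was thus near the level without OGD in both. Ddit4, an inhibitor of mTORC1, held 71.1 and 0.701 FPKM against 71.4 and 80.1 in OGD_Con, while the libraries without OGD held 34.4 to 40.4. Ndrg1, a stress-induced gene, held 117 and 1.96 FPKM against 124 and 120.4, and 77.6 to 110.5 without OGD. Adm, the vasodilator peptide adrenomedullin, held 41.9 and 0.271 FPKM against 42.1 and 46.2, and 44.2 to 55.7 without OGD. In these 3 replicate 2 lay below each of the other 7 libraries, as it did in 9 of the 20 members that departed downward. Of the 20, 13 lay within 0.5 log2 units of the mean without OGD. Among all 914 models with only replicate 2 lower, 809 lay below the other 7 libraries and 164 within 0.5 log2 units of that mean.

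The same held in glycolysis and lactate genes. Of 18 tested, replicate 2 departed downward in 9 and upward in 0, with a median of -1.002, and replicate 1 departed in 0 (median -0.01). The shares over all models in replicate 2 were 9.06% downward and 4.62% upward. Hk2, the inducible hexokinase, held 108 and 11.3 FPKM in OGD_PARP14 and 103 and 155 in OGD_Con, and 21.7 to 23.7 without OGD. Ldha, lactate dehydrogenase A, held 206 and 101 FPKM against 199 and 212, and 73.7 to 83.7 without OGD. Slc16a3, the lactate exporter, held 22.0 and 3.98 FPKM against 22.4 and 18.6, and 1.36 to 1.96 without OGD. Hk2 lay below all 7 other libraries in replicate 2, and Ldha and Slc16a3 between the levels with and without OGD. Pkm, pyruvate kinase, showed no such gap, at 211 and 227 FPKM against 211 and 226.

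Stress-response transcripts followed, with exceptions among chaperones. For the counts here, 9.06% of all models departed downward in replicate 2 and 4.62% upward. Of 25 tested genes for unfolded proteins and the integrated stress response, replicate 2 departed downward in 13 and upward in 0 (median -1.21), and replicate 1 in 0 (median -0.05). Herpud1, a component of ER-associated degradation, held 83.5 and 5.38 FPKM in OGD_PARP14 and 83.8 and 95.5 in OGD_Con, and 79.8 to 86.0 without OGD. Asns, asparagine synthetase and an ATF4 target, held 30.7 and 5.09 FPKM against 31.3 and 31.9, and Ddit3, which encodes CHOP, 83.4 and 23.8 against 78.8 and 84.8. Replicate 2 lay below all 7 other libraries for Herpud1 and Asns, and near the 17.4 to 20.5 FPKM without OGD for Ddit3. The chaperones Hspa5 and Calr stood higher there, Hspa5 at 109 and 140.0 FPKM against 81.5 and 85.4 and Calr at 142 and 256 against 136 and 136. Of 6 metallothionein and zinc genes 3 departed downward and 1, the zinc importer gene Slc39a10, upward. The metal-binding Mt2 held 174 and 7.79 FPKM against 179.8 and 183, and 12.6 to 16.4 without OGD. Of 18 p53 targets 5 departed downward, among them the pro-apoptotic Bbc3 at 20.6 and 4.48 FPKM against 21.8 and 21.0. The ERK-pathway gene Ier3, at 86.8 and 3.76 FPKM against 73.5 and 118, and the clock repressor Nr1d1, at 22.4 and 0.530 against 19.6 and 26.2, were low in replicate 2 as well.

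OGD-responsive models were therefore placed between the levels with and without OGD. In 271 models both OGD_Con libraries lay above all 4 libraries without OGD with means at least 1 log2 unit apart. On a scale of 0 at the mean without OGD and 1 at the OGD_Con mean, OGD_PARP14 replicate 2 had a median position of 0.0641 over them and replicate 1 of 0.941. Replicate 2 lay at or below the mean without OGD in 118, nearer to it than to OGD_Con in a further 88 and nearer to OGD_Con in 65, and replicate 1 in 7, 6 and 258. In 82 of the 271, replicate 2 lay below all 7 other libraries. For 133 models lower in OGD_Con the medians were 0.363 in replicate 2 and 0.938 in replicate 1. Choice of these models used the OGD_Con values, so the positions are descriptions.

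Several OGD-responsive genes stayed at their OGD level in replicate 2. Cxcr4, the receptor of CXCL12, held 78.5 and 80.1 FPKM in OGD_PARP14 and 75.2 and 75.7 in OGD_Con, and 4.24 to 7.90 without OGD. Zfand2a, a heat-shock and arsenite-induced gene, held 39.5 and 40.9 FPKM against 38.1 and 43.7, and 15.0 to 16.5 without OGD. Nfkbia, the inhibitor of NF-kB, held 31.6 and 30.3 FPKM against 33.0 and 26.2, and 78.6 to 89.3 without OGD. All 3 lay at their OGD level in both OGD_PARP14 libraries. Plk2, a stress-induced polo-like kinase, held 53.9 and 33.8 FPKM against 54.9 and 55.8 (5.95 to 6.45 without OGD), and Tnf 10.5 and 14.6 against 11.4 and 9.13 (56.2 to 63.7 without OGD). Their positions on the scale in replicate 2 were 0.766 for Plk2 and 0.807 for Tnf, against 0.0545 for Egln3. Cd83 lay at 0.689 and the cytokine gene Osm at 0.783.

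**Figure D3:**
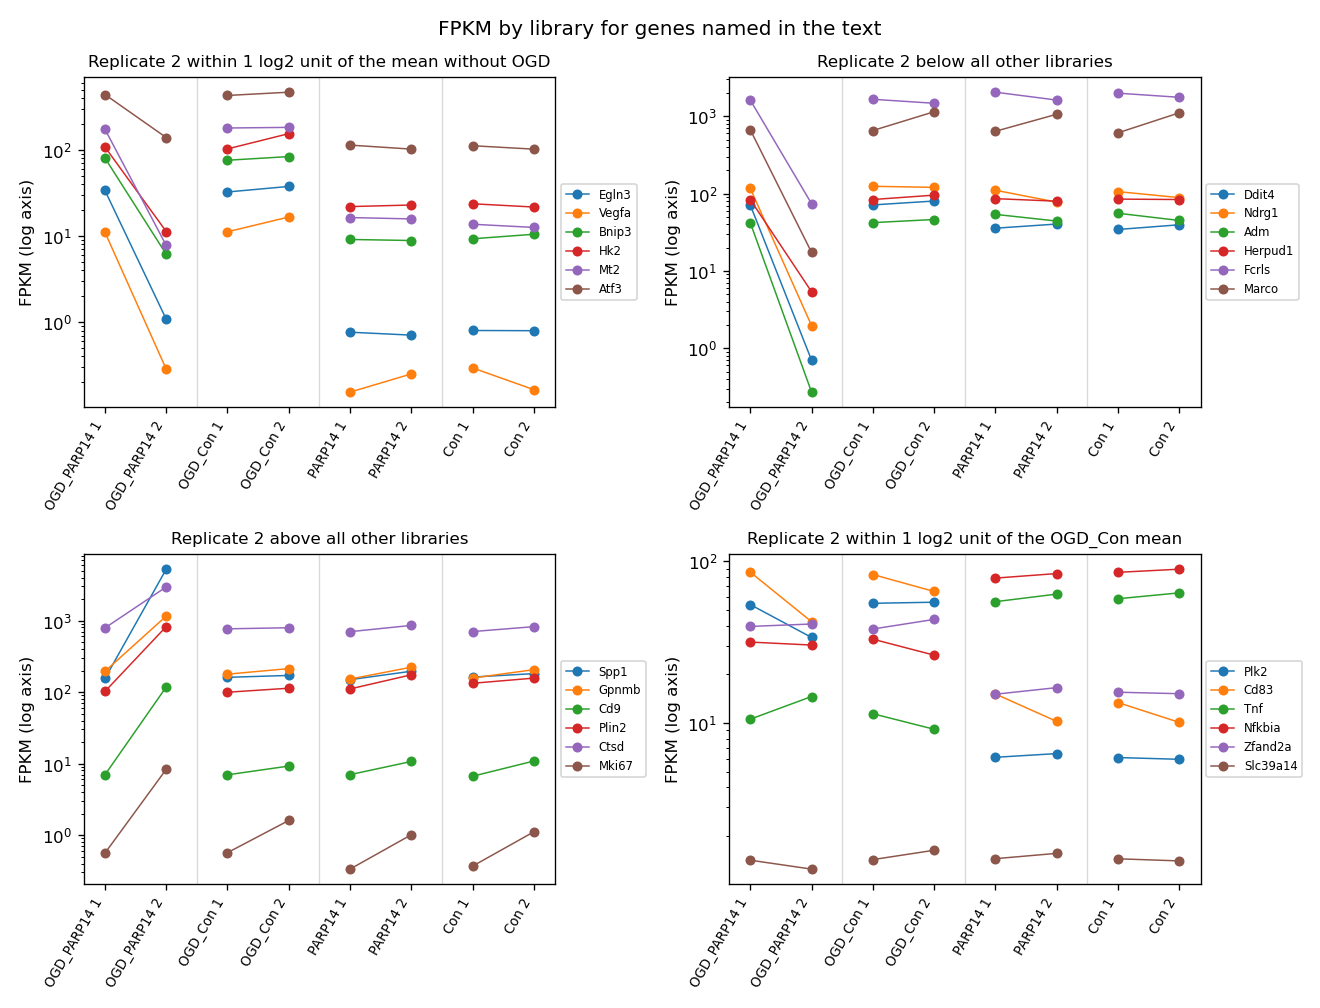
FPKM (log axis) in each library, OGD_PARP14 leftmost, in 4 panels of 6 genes; each point is 1 library and lines join the 2 libraries of a group. OGD_PARP14 replicate 2 sits near the libraries without OGD for Egln3 (1.08 FPKM), below all others for Ddit4 (0.701), above all others for Spp1 (5231) and near OGD_Con for Zfand2a (40.9).

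Among the lowest values of replicate 2 were surface and immune-receptor transcripts that were abundant in the other 7 libraries. Ighm, the immunoglobulin mu heavy chain, held 62.0 and 0.0680 FPKM in OGD_PARP14 and 60.9 and 64.5 in OGD_Con, and 62.7 to 69.2 without OGD. Siglece, an inhibitory sialic acid receptor, held 92.3 and 1.31 FPKM against 93.3 and 86.2, and Cd55, a complement decay factor, 49.1 and 0.410 against 50.2 and 51.6. Fcrls, a microglial Fc receptor-like protein, held 1614 and 74.0 FPKM against 1656 and 1472. Replicate 2 lay below all other libraries in each of these 4. Cd79b, the B-cell receptor beta chain, and Asb2, a ubiquitin ligase adaptor, stood at 0.202 and 0.616 FPKM in replicate 2 and at no less than 27.9 and 58.4 in the other 7. In all, 16 models held at least 20 FPKM in the other 7 libraries and under 1 in replicate 2, and 1 model (Gm41396) the reverse. Adgre1 (F4/80) and Aif1, both macrophage markers, stood at 480.2 and 22.8 FPKM in replicate 2, against 1370.2 and 53.1 in replicate 1, 1340.4 and 54.3 in OGD_Con replicate 1, and 1457 and 50.0 in OGD_Con replicate 2. Of the 14 microglia and macrophage markers 3 departed upward and 4 downward in replicate 2, with 7 above and 7 below the OGD_Con mean. Among all models 4.62% departed upward and 9.06% downward there.

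Marco, a scavenger receptor for bacteria and particles, held 667 and 17.4 FPKM in OGD_PARP14 and 654 and 1143 in OGD_Con. Its level followed the replicate number elsewhere, at 639 and 1060.2 FPKM in PARP14 and 609.8 and 1106 in Con. The calcium-binding protein gene Calb2 did likewise, at 30.1 and 0.166 FPKM in OGD_PARP14, 28.8 and 55.6 in OGD_Con, 27.9 and 53.8 in PARP14 and 25.7 and 52.8 in Con. So did Chil3, the chitinase-like protein Ym1, at 17.5 and 0.327 FPKM in OGD_PARP14 and 16.4 and 118 in OGD_Con. In these 3 the other libraries numbered 2 were the high ones, and OGD_PARP14 replicate 2 was the lowest of the 8.

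Genes of the phagocytic, lipid-laden microglial state lay higher in replicate 2, where 4.62% of all models departed upward and 9.06% downward. Of 24 disease-associated microglia genes 20 were tested, and OGD_PARP14 replicate 2 departed upward in 17 and downward in 0 (median 1.68), while replicate 1 departed in 0 (median 0.01). Spp1, osteopontin, in a model joined with Gm42793, held 155 and 5231 FPKM in OGD_PARP14 and 161 and 171 in OGD_Con. Gpnmb, a lysosomal glycoprotein, held 195 and 1156 FPKM against 178 and 213, and the tetraspanin gene Cd9 6.97 and 118 against 6.96 and 9.22. Lgals3, galectin-3, had the highest replicate 1 difference of the list, 0.57, at 204 and 934 FPKM against 138 and 136. All 17 lay above each of the other 7 libraries in replicate 2, as did 419 of all 459 models with only replicate 2 higher. Of the 20, 19 lay above the OGD_Con mean in replicate 2 and 1 below, against 41.5% of all models above. The fit without OGD_PARP14 replicate 1 compares a lone library, so its calls add no support to these departures.

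Lysosomal, lipid and scavenger genes showed the same split. Their counts stand against 4.62% of all models departing upward in replicate 2 and 9.06% downward. Of 34 lysosome and V-ATPase genes, replicate 2 departed upward in 8 and downward in 0 (median 0.40), with the aspartic protease gene Ctsd at 789 and 2953 FPKM in OGD_PARP14 and 766 and 794 in OGD_Con. The V-ATPase subunit gene Atp6v0d2 held 4.81 and 53.9 FPKM against 4.55 and 7.63. Of 20 lipid handling genes 6 departed upward and 1 downward (median 0.36). Plin2, the coat protein of lipid droplets, held 102 and 825 FPKM against 99.5 and 113, Apoe 1998 and 6114 against 1889 and 1921, and the fatty acid desaturase gene Scd2 5.18 and 0.627 against 5.62 and 19.0. Of 11 scavenger receptors 8 departed upward and only Marco downward (median 1.29). Stab1, a receptor for modified lipoproteins and phosphatidylserine, held 39.4 and 200.4 FPKM against 39.7 and 39.2, and Cd68 391 and 1153 against 344 and 373. Folr2, a folate receptor of border-associated macrophages, held 12.5 and 221 FPKM against 13.3 and 15.7, and Mrc1, the mannose receptor, 15.5 and 29.8 against 13.5 and 15.4. They were the 2 of 7 tested border-associated macrophage markers that departed. The list summed to 184 and 381 FPKM in OGD_PARP14 and 178 and 173 in OGD_Con, with Lyve1 at most 0.0329 and Cd163 at 0.587 and 0.126 FPKM against 0.538 and 1.10.

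Most genes on the homeostatic list lay higher in replicate 2, but Tmem119 and Fcrls lay far lower. Of 19 tested, 17 lay above the OGD_Con mean there and 2 below, against 41.5% of all models above. Replicate 2 departed upward in 6 and downward in 2 (median 0.76), and replicate 1 in 0 (median 0.15). The all-model shares in replicate 2 were 4.62% upward and 9.06% downward, so the downward count is near its share. The lipid receptor gene Trem2, in a model joined with Treml1, held 15.7 and 87.9 FPKM in OGD_PARP14 and 12.9 and 14.3 in OGD_Con. Its replicate 2 difference, 2.61, was the highest of the list, and it is also a marker of the phagocytic state. Tmem119 held 5.49 and 1.88 FPKM against 5.23 and 5.22, and it lay below all others, as Fcrls did. The complement gene C1qb lay within 1 log2 unit throughout, at 1119.8 and 1165 FPKM against 1096 and 888.

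Matrix and protease genes, and cell cycle genes, also stood higher in replicate 2, where 4.62% of all models departed upward and 9.06% downward. Of 19 matrix, protease and adhesion genes 9 departed upward and 2 downward (median 0.97). Mmp12, macrophage elastase, held 11.2 and 173 FPKM in OGD_PARP14 and 8.55 and 18.3 in OGD_Con, and the metalloprotease gene Adam8 44.3 and 437 against 45.6 and 53.02. Without OGD, Mmp12 held 9.32 and 18.5 FPKM in PARP14 and 9.06 and 16.0 in Con, so it was higher in replicate 2 of every group. Of 33 cell cycle genes 20 were tested, and replicate 2 departed upward in 18 and downward in 0 (median 1.46). It lay above all 7 other libraries in each of the 18, as in 419 of all 459 models with only replicate 2 higher. Replicate 1 departed in 0 of the 20 (median -0.09). Mki67, the proliferation marker Ki-67, held 0.559 and 8.31 FPKM against 0.567 and 1.60, and Mcm5, a subunit of the replicative helicase, 2.14 and 15.1 against 2.39 and 3.87. Members of the list under 1 FPKM in most libraries were not tested. Replicate 2 itself counted toward that filter, with 31 members at 1 FPKM or more, against 15 in replicate 1 and 14 and 20 in OGD_Con. Mki67 passed only with the help of replicate 2, so the tested members lean toward genes high in that library. The summed list was 77.2 and 343 FPKM in OGD_PARP14 and 78.3 and 96.0 in OGD_Con. Without OGD it was 74.7 and 105 FPKM in PARP14 and 71.7 and 105 in Con, so replicate 2 was the higher in every group.

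Interferon, chemokine and NF-kB genes were mixed. Their counts, and those of the Fc receptor list, stand against 4.62% of all models departing upward in replicate 2 and 9.06% downward. Of 29 interferon-stimulated genes, replicate 2 departed upward in 5 and downward in 1 (median 0.40), and replicate 1 in 0 (median 0.09). Rsad2, the antiviral protein viperin, held 15.0 and 39.9 FPKM in OGD_PARP14 and 15.9 and 12.4 in OGD_Con, and 35.2 to 60.4 without OGD. All 5 lay within 0.5 log2 units of their mean without OGD, as did 56 of all 459 models with only replicate 2 higher. Of 11 chemokines 4 departed upward and 2 downward. Ccl9, a monocyte attractant, held 90.2 and 255 FPKM against 90.4 and 93.5, and Ccl3, a macrophage inflammatory chemokine, 595 and 180.0 against 565 and 663. Of 14 NF-kB inflammatory genes 4 departed downward and 0 upward (median -0.83), led by Nfkbiz, a nuclear IkB protein, at 96.1 and 7.23 FPKM against 103 and 90.0. Of 14 Fc receptor and Syk pathway genes 3 departed upward and 5 downward, with the activating receptor gene Fcgr3 at 63.3 and 207 FPKM against 53.2 and 41.5 and the kinase gene Syk at 75.3 and 29.5 against 77.1 and 82.1.

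The 34 listed ribosomal protein genes lay lower in replicate 2. All 34 had a negative difference there, from -1.39 to -0.56 (median -1.01), 18 departed, and in replicate 1 they ranged from -0.16 to 0.29 (median 0.02). Rps6 held 775 and 336 FPKM in OGD_PARP14 and 780.0 and 778 in OGD_Con. Over all models 41.5% lay above the OGD_Con mean in replicate 2. Rps25, which is not on the list, stood at a difference of 0.32 in replicate 2. Rpl and Rps genes held 5.51% and 2.71% of all named FPKM in OGD_PARP14 and 5.42% and 5.35% in OGD_Con, while the 10 highest models held 14.5% and 21.2% against 15.0% and 15.5%. Of 29 nuclear oxidative phosphorylation genes 27 were negative in replicate 2 with 2 departing (median -0.33). Both departed downward, as did 9.06% of all models in replicate 2, so this count is near the share over all models. In replicate 1 mt-Atp6, mt-Atp8 and mt-Co3, which share a model, lay at -0.80 and in replicate 2 at -1.02.

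**Figure D4:**
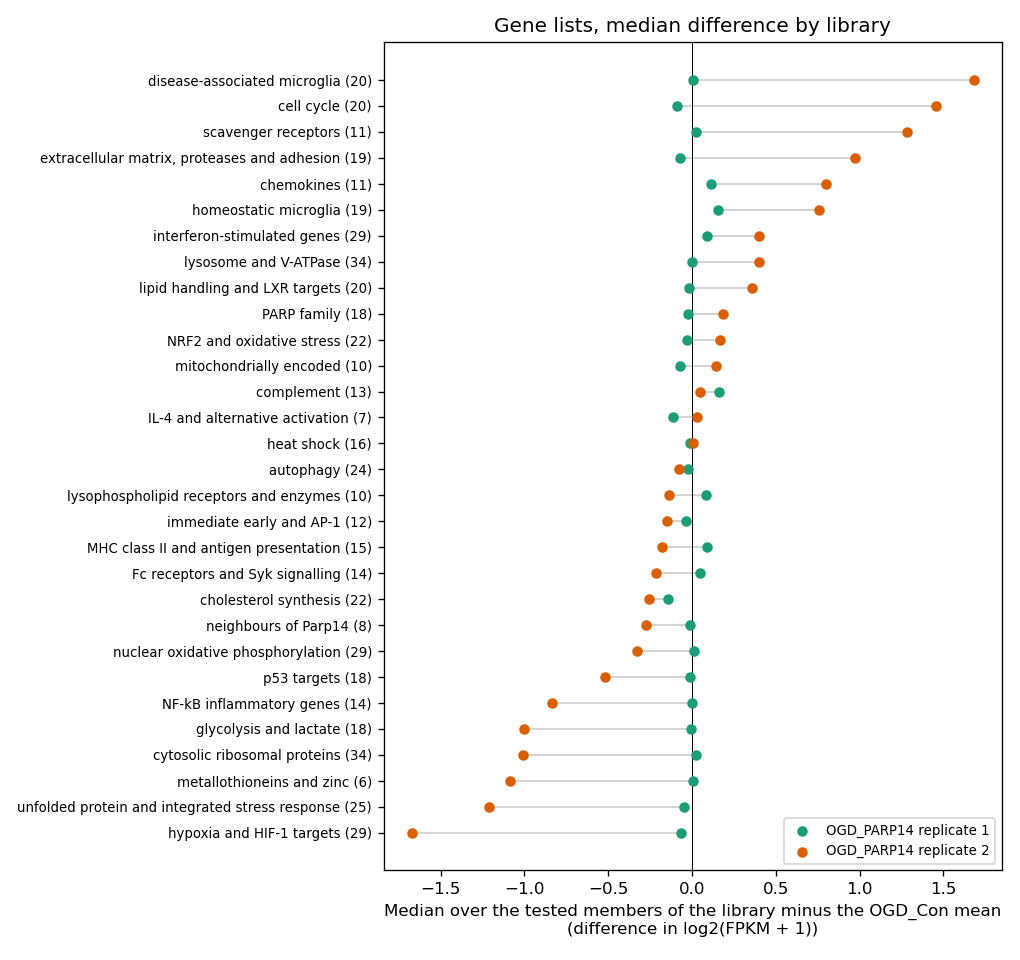
Median difference from the OGD_Con mean, in log2(FPKM + 1), over the tested members of 30 gene lists (number tested in brackets) for OGD_PARP14 replicate 1 and OGD_PARP14 replicate 2. Replicate 1 medians lie between -0.14 and 0.16, and replicate 2 medians run from -1.67 for hypoxia and HIF-1 targets to 1.68 for disease-associated microglia genes.

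Lysophospholipid and PARP genes were examined for the study's own targets. Of 10 tested lysophospholipid receptors and enzymes, Lpar5 was lower in both OGD_PARP14 libraries. S1pr1, a sphingosine 1-phosphate receptor, held 1.11 and 23.9 FPKM in OGD_PARP14 and 0.987 and 0.891 in OGD_Con, and Enpp2, autotaxin, 2.02 and 0.0819 against 1.88 and 3.19. Both departed in replicate 2 only, and S1pr1 passed the filter only through OGD_PARP14. Of 18 PARP family genes, Parp14 stood above the OGD_Con mean in both libraries, with only OGD_Con replicate 1 low. Tiparp, a PARP induced by the aryl hydrocarbon receptor, was lower in replicate 2 alone, at 45.2 and 5.82 FPKM against 44.3 and 60.5. Parp9, the neighbour of Parp14, held 20.9 and 28.9 FPKM against 22.2 and 21.1, and Parp12 41.4 and 61.1 against 42.4 and 41.4.

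Short loci with no reference transcript were also high in replicate 2, and their part in the other results was not tested. Loci of at most 600 bp without one, 69 in number, summed to 617 and 9353 FPKM in OGD_PARP14 and 739.7 and 614 in OGD_Con, or 0.205% and 3.15% of all named FPKM against 0.247% and 0.208%. Filip1l names one such locus, at 3519 FPKM in replicate 2, against 129.5 and 108 in OGD_Con. Rn7s1 and Rn7s2, which are signal recognition particle RNA genes, summed to 8.77 and 304 FPKM against 7.98 and 6.83. Leaving out all models without a reference transcript left 1339 of the 1373 models with only replicate 2 apart and 20 of the 26 with both apart the same way.

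The difference between plasmids under OGD was also tested against the difference without OGD. In that interaction limma called 1 of 10743 models (0.00931%) as higher and 0 as lower (0%), and 204 models had an unadjusted p under 0.05. The model, the predicted gene Gm6793, held 75.0 and 60.5 FPKM in OGD_PARP14, 72.2 and 69.0 in OGD_Con, 6.01 and 5.37 in PARP14 and 57.0 and 57.7 in Con. Its interaction was 3.06 (SE 0.19, limma adjusted p = 0.0407), and it rests on the low PARP14 libraries, since the OGD groups overlapped. Leaving out any 1 OGD_Con, PARP14 or Con library gave 0 calls.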

How the data were processed

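RNA was measured in 8 libraries, made per the labels' protocols from poly(A) RNA with dUTP strand marking and molecular identifiers. HISAT, StringTie and edgeR, without versions, and mm9 are named in the submitters' processing notes. FPKM are the authors' deposited values, and 96.2% of Ensembl models lie at GENCODE M21 (GRCm38) positions. Fragments may be shared between overlapping models. Depth was estimated from the spacing of low values.

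Values were taken as log2(FPKM + 1), which understates fold changes of low genes. limma 3.58.1 (R 4.3.3) fitted 4 group means over all 8 libraries, leaving 4 residual degrees of freedom, with Benjamini-Hochberg adjustment over all models. The fit was tested on simulated data whose spread was taken without the OGD_PARP14 libraries. That simulation lacks the departure of replicate 2, so it cannot tell how the fit performs on the real comparison. Members and lists were chosen with earlier results of these data known. Named were Parp14, Lpar5, the 4 smallest p values per direction, up to 10 models per direction where both libraries or only replicate 2 departed, up to 4 for replicate 1, with a mean of at least 5 FPKM and no predicted name, and list members by their replicate 2 difference. Other agreeing models, those called without OGD_PARP14 replicate 2, further reference models and Pkm, Cxcr4, Osm, Adgre1 and Aif1 were named after their values were seen. Ero1a, Ifit1, Cmpk2, Ccl2, Fabp5, Fos, Ier2, Ccne1 and Slc49a4 were not analysed here. Alternatives covered pseudocounts, filters, scaling, the replicate block and left-out libraries. Some genes are not reported here.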

Additional observations from a re-analysis of the deposited data

Results flagged for a closer look

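Plasmid differences under OGD and without OGD were set against each other in 622 models, those named above and the tested list members. Gm6793 differed by test, with an interaction of 3.06 log2 units (limma adjusted p = 0.0407). In 21 others both OGD_PARP14 libraries lay beyond both OGD_Con libraries on one side and both PARP14 libraries beyond both Con libraries on the opposite side, and the interaction passed in 0 of them. Over all models 487 (4.53%) did so.

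Among these 21 the Parp14 model (Gm49730) had an interaction of 3.19 and Cox4i1 of -1.86 (limma adjusted p = 0.822 and 0.572). Further interactions, each with a limma adjusted p of 0.822, were 2.92 for Gm40645 and -1.81 for the pseudogene Gm12115. Stress and metal genes gave -2.49 for Mt2, -1.62 for Gadd45a, -1.52 for Atf4, -1.23 for Mthfd2, -0.84 for Fam162a, -0.64 for Phlda3, -0.57 for Phgdh, -0.43 for Sqstm1, -0.42 for Plk2 and -0.16 for Slc39a14. Immune and lipid-signalling genes gave -1.45 for Tnfaip3, -0.57 for Cd200r1, -0.56 for Psmb9 and 0.54 for Sphk2. Ribosomal protein genes gave -0.75 for Rpl30 with Gm24523 and -0.61 for Rpl18. With 2 libraries a group no test for single outlying libraries was made.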

How the results depend on the processing

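limma called 0 models in OGD_PARP14 against OGD_Con with a pseudocount of 0.1 or 5, with either other filter or none, with an intensity trend, with only the 4 OGD libraries (145 at an unadjusted p under 0.05) and with a minimum log2 fold change of 1. It called 2 with quantile normalization and 1 with median centring. Leaving out 1 library at a time gave 0 to 4612 calls: 9 without OGD_PARP14 replicate 2, 4612 without OGD_PARP14 replicate 1, 1 without Con replicate 1 or Con replicate 2 and 0 otherwise; the cause was not tested. The interaction gave 0 calls with a pseudocount of 0.1, no filter, an intensity trend or a minimum log2 fold change of 1, and 0 to 3255 when 1 library was left out (3255 without OGD_PARP14 replicate 1, 6 without OGD_PARP14 replicate 2). Parp14 ranged from 0.04 to 2.05 and Lpar5 from -2.35 to -1.50 over the fits that left out 1 library.

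Deviations of same-numbered libraries from their group means correlated at 0.012 to 0.121 between groups, not all above 0.1, so the numbers were not taken to pair libraries, although Marco, Calb2 and Chil3 followed the number in the groups other than OGD_PARP14. A fit with the replicate number as a block called 0 models in OGD_PARP14 against OGD_Con (353 at an unadjusted p under 0.05) and 0 in the interaction.

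Models on which both OGD_PARP14 libraries agree numbered 26, 45 with a pseudocount of 0.1, 11 with 5, 5 at a limit of 2 log2 units and 45 to 50 without 1 OGD_Con library. Models with only replicate 2 apart numbered 1373, 694 with a pseudocount of 5 and 291 at 2 log2 units. Of 1480 checks on differences and list medians of at least 1 log2 unit, all 1480 kept their sign. Filters, the larger limit and the restriction to reference models cannot change a single library's difference. Leaving out 1 OGD_Con library cannot reverse it where the library lies beyond both. That outcome was thus largely fixed in advance and is no measure of robustness. A model 1 kb long at 1 FPKM rests on few fragments, so values under 1 FPKM are weakly held.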

Other observations

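Among the models with only OGD_PARP14 replicate 2 higher was S100a6, a calcium-binding protein, which held 1.38 and 37.3 FPKM in OGD_PARP14 and 1.54 and 1.81 in OGD_Con. Anpep, aminopeptidase N, held 7.68 and 92.9 FPKM against 7.13 and 6.61, and Mfge8, the bridging protein for uptake of apoptotic cells, 3.89 and 69.7 against 4.75 and 6.49. All 3 were highest of the 8 libraries in replicate 2, and their replicate 1 values lay within 1 log2 unit of the OGD_Con mean.

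Models in which the 2 OGD_PARP14 libraries departed in opposite directions numbered 5. Kctd12, in a model joined with Mir5130, held 148 and 2.79 FPKM in OGD_PARP14 and 81.9 and 21.7 in OGD_Con. Hspa1b, an inducible heat shock protein, held 12.6 and 1.14 FPKM against 9.63 and 2.91. In both, OGD_Con was itself split by replicate.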
